A study of Mus musculus with 4 samples.

Results

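Complement and coagulation are the 2 plasma protease cascades, and 45 of their genes were read out in 4 bulk RNA libraries of cells labelled hepatocyte-like. The 45 genes were chosen by symbol from among 78028 rows of each count table, and all 45 had a row. They comprise 23 complement genes and 22 genes of coagulation and of the plasminogen system, which dissolves clots. The cells came from E14TG2a, an established male mouse embryonic stem cell line, and all 4 cultures were differentiated separately in A-HIC, an advanced hepatic-inducing cocktail. The 4 libraries form 1 group and carry the replicate numbers 1 to 4 of their labels; there is no undifferentiated, untreated or liver library here, so no value below is a response to the cocktail. The line is a single cell line, and the labels do not say what the cocktail contains or how long it was applied.

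Complement is a set of plasma and membrane proteins that marks and lyses cells. The classical pathway starts from C1q and its proteases C1r and C1s, the lectin pathway from mannose-binding lectins or collectins and the MASP proteases, and both join the alternative pathway at C3, after which C5 to C9 form a pore. Coagulation starts when tissue factor, a membrane protein outside the vessel lumen, binds factor VII, and ends with thrombin cleaving fibrinogen to fibrin. Membrane and plasma inhibitors hold it back, and plasmin, made from plasminogen by tissue or urokinase activators, dissolves the clot. Hepatocytes are the main source of most of the plasma proteins of both cascades, whereas tissue factor, thrombomodulin, the protein C receptor, the plasminogen activators and the urokinase receptor are made mostly by other cell types.

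The libraries held 29.5 to 40.2 M counts, and levels are given in TPM, a transcript level scaled for gene length and library size. In the text, expressed means that each of the 4 libraries had at least 1 TPM, and not detected means that no library had more than 3 counts. The label of the cells was set against 7 marker lists of 12 genes. Of the hepatocyte markers, 4 were expressed and 2, Fabp1 (0 counts in all libraries) and Tat, were not detected. Their summed level was 21.4 to 67.6 TPM, with Ttr at 14.3 ± 12.2 TPM (SD, n = 4) and Cebpa at 6.54 ± 1.52 TPM as the 2 highest. All 12 pluripotent cell markers were expressed (summed 4694 to 8324 TPM, led by Dppa5a and Zfp42). So were all 12 of parietal endoderm (3640 to 11140 TPM, led by Sparc and Col4a1). All 12 of fibroblasts were also expressed (1511 to 3765 TPM, led by Col1a1 and Col3a1). Of trophoblast markers 8 of 12 were expressed (254 to 332 TPM, led by Prl2c2 and Tfap2c). That is near the share of all protein-coding genes expressed, 63.3%. The lists were chosen with earlier results of these data known. By these lists the data go against a hepatocyte-like label for the bulk of the RNA, and the samples are called A-HIC libraries below. In bulk RNA, fewer cells of a type and less RNA per cell cannot be told apart, and this holds for every low value below.

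The promoters of the 3 highest genes and of 1 of the 2 genes without a count are shown because they stand at opposite ends of the range of levels. Each sequence is the 250 bases before the transcription start in RefSeq on GRCm38.p6, printed 5′ to 3′ on the strand of the gene, with CpG dinucleotides in capitals. Tfpi, the tissue factor pathway inhibitor, lies at chr2:84476760-84477009 (minus strand) and has 2 listed starts, of which the most upstream is used. F3, tissue factor, lies at chr3:121723287-121723536 (plus strand). Pros1, protein S, lies at chr16:62854057-62854306 (plus strand). F9, factor IX, lies at chrX:59999214-59999463 (plus strand).
Tfpi: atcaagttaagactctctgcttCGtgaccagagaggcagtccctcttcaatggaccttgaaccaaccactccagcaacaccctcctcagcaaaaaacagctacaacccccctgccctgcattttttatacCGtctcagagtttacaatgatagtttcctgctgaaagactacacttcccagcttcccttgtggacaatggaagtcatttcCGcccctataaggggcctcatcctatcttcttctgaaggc
F3: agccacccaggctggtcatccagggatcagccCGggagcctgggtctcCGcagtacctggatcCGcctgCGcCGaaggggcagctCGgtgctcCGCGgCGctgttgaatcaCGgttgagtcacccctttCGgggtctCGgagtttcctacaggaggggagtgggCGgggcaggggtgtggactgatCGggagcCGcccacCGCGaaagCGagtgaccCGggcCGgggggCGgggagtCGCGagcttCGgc
Pros1: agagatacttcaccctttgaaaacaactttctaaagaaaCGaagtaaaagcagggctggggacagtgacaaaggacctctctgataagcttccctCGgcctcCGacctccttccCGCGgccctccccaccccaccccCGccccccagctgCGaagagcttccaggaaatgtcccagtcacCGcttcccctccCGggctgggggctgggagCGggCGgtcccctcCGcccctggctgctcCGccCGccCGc
F9: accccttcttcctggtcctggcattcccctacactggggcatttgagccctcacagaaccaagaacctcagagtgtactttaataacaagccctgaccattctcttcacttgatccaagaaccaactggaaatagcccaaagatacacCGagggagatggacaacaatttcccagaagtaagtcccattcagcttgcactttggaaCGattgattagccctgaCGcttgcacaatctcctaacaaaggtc

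The F3 window held 24 CpG dinucleotides, and 11.7% of 27025 RefSeq mouse promoters of this length held at least as many. Pros1 held 15 (27.5% of promoters held at least as many), and Tfpi and F9 held 3 each (70.4%), beside a median of 6. Of 5 short motifs searched on both strands, the GC box GGGCGG (33.0% of promoters) occurred 5 times in Pros1, 3 times in F3 and once in Tfpi. TGACTCA, the AP-1 motif (4.43%), occurred once in F3, and TATAAA (12.98%) once in Tfpi. The other motifs were GTTAAT, a stretch of the HNF1 motif found in 6.54% of promoters, and a site of GATA factors, AGATAA (10.2%). Neither was in these 4 windows, and the F9 window held none of the 5. No motif contains another. These are matches of letters only. A promoter entry was found for 34 of the 45 genes (75.6%), so a comparison of promoter content over the whole set was void and is not given.

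The levels of the 45 genes ran from no count in any library to 239 TPM for F3 in library 2, as the plot of every gene by library shows. Of the 45, 18 were expressed, beside 63.3% of 19968 protein-coding genes, and 7 were not detected (Mbl2, Cfd, C6, F9, F10, F11 and F13b), beside 16.9% of protein-coding genes. The median of the mean levels was 0.697 TPM over the 45 genes and 7.53 TPM over all protein-coding genes. Each level was also tested against 1 TPM with edgeR's quasi-likelihood test, with the spread between cultures as the error and Benjamini-Hochberg adjustment over 28047 rows. By that test 20 genes were above 1 TPM, beside 72.9% of 17513 protein-coding genes tested, and 18 were below, beside 17.9%. Another 5 (F7, Masp2, Fga, Fgg and C7) were not called either way, and C6 and F9, with 0 counts in every library, could not be tested. A count of 0 allows up to 3 fragments, or 6 counts where both ends of a read pair were counted, which is 0.162 to 0.214 TPM for C6 and 0.210 to 0.278 TPM for F9. The limit covers counting error only.

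**Figure D1:**
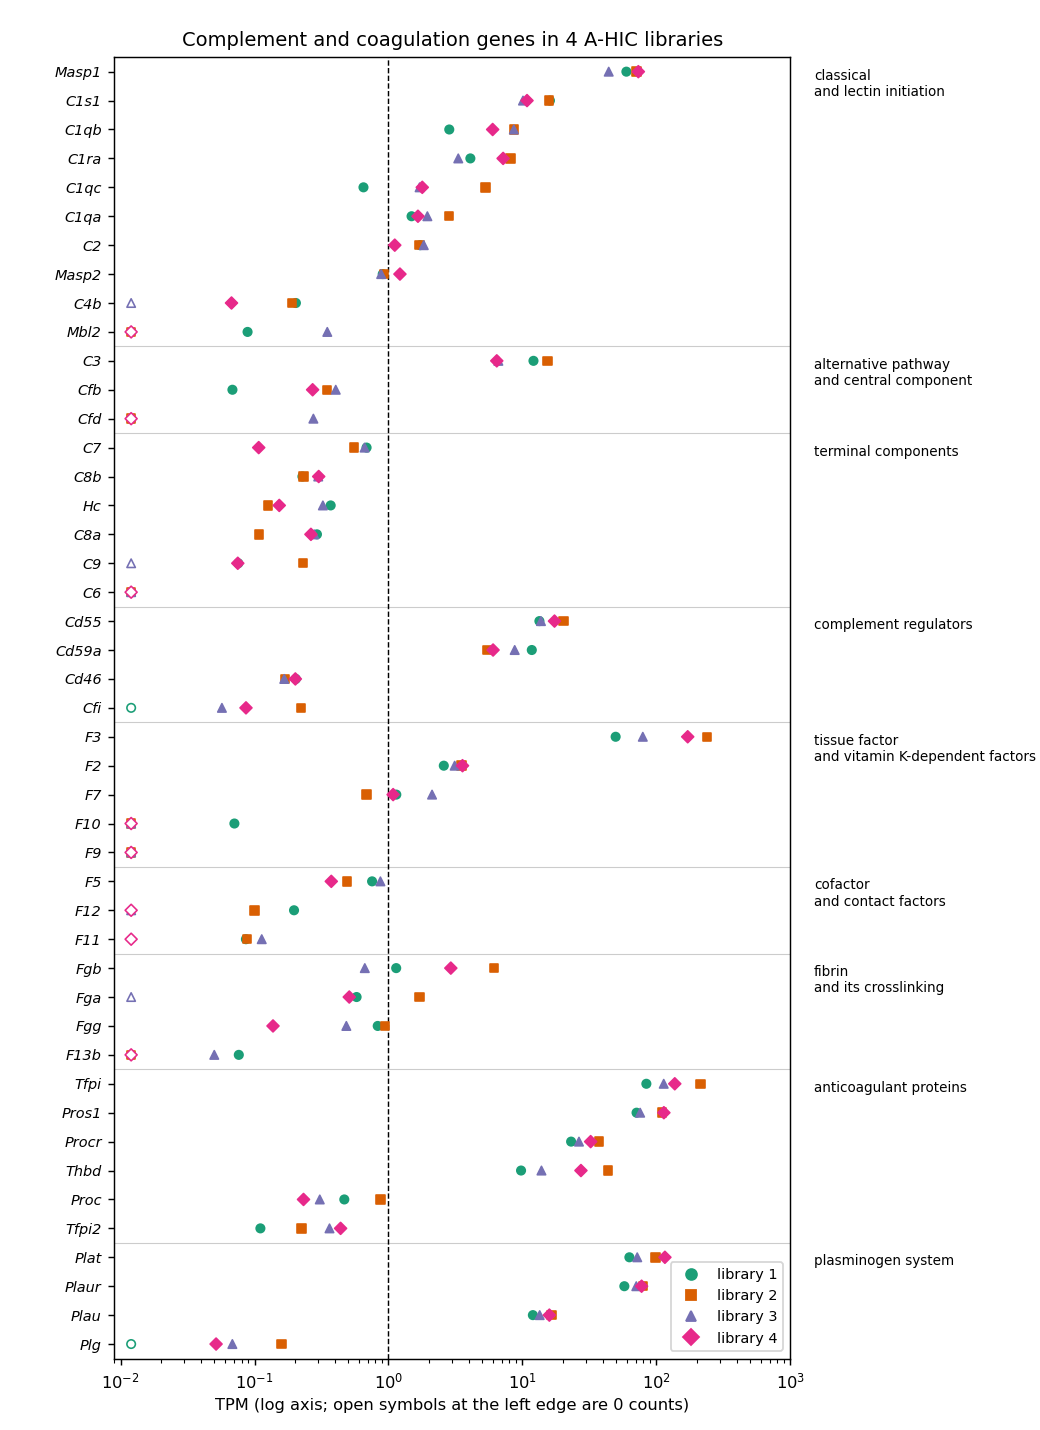
Level of each of the 45 genes in each of the 4 A-HIC libraries, in TPM on a log axis, grouped by role; open symbols at the left edge are 0 counts and the dashed line is 1 TPM. The anticoagulant proteins and the plasminogen system hold most of the highest levels, from 9.76 TPM upward for Tfpi, Pros1, Procr, Thbd, Plat, Plaur and Plau, while no terminal component reached 1 TPM in any library.

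Among the complement groups, the genes that start the classical and lectin pathways had the largest share expressed. Of these, 6 of 10 were expressed, near the 63.3% of all protein-coding genes. By the test 7 were above 1 TPM and 2 below, beside 72.9% and 17.9% of protein-coding genes tested. Masp1, a serine protease gene of the lectin pathway, stood at 59.7, 70.8, 44.0 and 73.3 TPM in libraries 1 to 4 (62.0 ± 13.3, SD, n = 4; edgeR adjusted p = 8.45e-18). Library 3 was the lowest, and all 4 values lay far above 1 TPM. The gene also encodes MASP-3 and the non-catalytic MAp44 from shared exons, which gene counts cannot separate, and its mean was 85.5 ± 18.4 TPM when the longest transcript was used as its length. Its relative Masp2, which cleaves C4 and C2, stood at 0.906, 0.922, 0.882 and 1.22 TPM and did not differ from 1 TPM by this test (adjusted p = 0.926). Of the exonic bases of Masp2, 54.9% overlap Tardbp on the opposite strand, and these libraries keep no strand, so even this level is uncertain. The recognition lectin Mbl2 had 1, 0, 3 and 0 counts, and its call below 1 TPM (adjusted p = 0.0296) was lost with DESeq2 (0.0716) and without library 1, 2 or 4 (0.0648 to 0.0822).

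The C1 proteases were expressed at moderate levels. C1s1, one of 2 mouse genes for C1s, stood at 16.0, 15.8, 10.1 and 10.8 TPM (13.2 ± 3.16), with libraries 1 and 2 the higher pair. C1ra, one of 2 genes for C1r, stood at 4.09, 8.12, 3.32 and 7.17 TPM (5.67 ± 2.33), with libraries 2 and 4 the higher pair. Near-identical copies, C1s2 at 1.40 TPM and C1rb at 0.0893 TPM, make the split of reads within each pair of copies uncertain, and 18.4% of the exonic bases of C1s1 overlap an opposite-strand gene.

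The 3 chains of C1q, the recognition protein of the classical pathway, were low. C1qb stood at 2.84, 8.68, 8.63 and 5.99 TPM (6.53 ± 2.76; adjusted p = 1.50e-07). C1qc had 13, 104, 26 and 36 counts, or 0.651, 5.30, 1.71 and 1.79 TPM, so it missed 1 TPM in library 1 and was highest in library 2. C1qa stood at 1.49, 2.84, 1.95 and 1.66 TPM. Without library 2 neither C1qc nor C1qa was called above 1 TPM (adjusted p = 0.217 and 0.0619). Macrophages are a known source of C1q, and 6 of 12 macrophage markers were expressed, beside 63.3% of protein-coding genes. The 12 summed to 168, 145, 163 and 121 TPM in libraries 1 to 4, most of it from Cd68 (71.8 TPM) and Laptm5 (55.2 TPM). The other expressed ones were Csf1r (5.46 TPM), Lyz2 (5.39 TPM), Cd14 (3.96 TPM) and Tyrobp (2.44 TPM). Ptprc stood at 0.130 TPM, and Aif1 was not detected. The part of these markers in the C1q levels was not tested. C2, the protease cleaved beside C4, was expressed at 1.72, 1.70, 1.83 and 1.11 TPM, but 46.9% of its exonic bases overlap other genes. C4b, the mouse C4 gene, had 12, 11, 0 and 4 counts and was below 1 TPM (adjusted p = 0.00379), and C4a, its near copy, stood at 0.436 TPM.

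C3, the protein on which all complement pathways converge, was expressed at 12.1, 15.4, 6.61 and 6.43 TPM (10.1 ± 4.37; adjusted p = 1.77e-10). Libraries 1 and 2 were the higher pair. The alternative pathway proteases that act with C3 were both below 1 TPM: factor B (Cfb) at 0.0684, 0.348, 0.404 and 0.272 TPM, with 79.5% of its exonic bases shared with a readthrough gene, and factor D (Cfd), not detected with 2 counts in library 3 and none elsewhere. The call of Cfd was lost with DESeq2 (adjusted p = 0.143) and without library 1, 2 or 4 (0.0552 to 0.0691).

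Of the 6 terminal components, which form the lytic pore, none was expressed and none was above 1 TPM by the test. C7 was the highest at 0.686, 0.551, 0.663 and 0.107 TPM (adjusted p = 0.0603), with library 4 apart at 3 counts. C8b followed at 0.228, 0.232, 0.299 and 0.301 TPM. Hc, which encodes C5, and C8a, C8b and C9 were below 1 TPM, with means of 0.0954 to 0.265 TPM, and C6 had no count. The plasma pore genes as a set summed to 0.901 to 1.65 TPM per library.

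Among the 4 complement regulators, the 2 membrane proteins anchored by glycolipid were expressed. Cd55, which speeds the decay of C3 convertases, stood at 13.4, 20.3, 13.7 and 17.3 TPM (16.2 ± 3.26). Cd59a, which blocks the pore, stood at 11.7, 5.48, 8.75 and 6.04 TPM (8.00 ± 2.87) and was lowest in library 2, where Cd55 was highest. Both have near copies, Cd55b at 0.201 TPM and Cd59b at 5.88 TPM, so the split of reads is uncertain. Cd46, a cofactor for C3b cleavage that mice express mainly in the testis, stood at 0.167 to 0.203 TPM, and Cfi, the plasma protease that cleaves C3b, had 0, 5, 1 and 2 counts; both were below 1 TPM.

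Tissue factor was high, and the plasma proteases that follow it in coagulation were scarce. F3 stood at 49.6, 239, 79.1 and 171 TPM (135 ± 86.6; adjusted p = 1.29e-14), and 92.9% of protein-coding genes had a lower mean. Libraries 2 and 4 were the high pair and library 1 was 4.81-fold below library 2. Of the vitamin K-dependent factors grouped here with F3, only F2, which encodes prothrombin, was expressed, at 2.59, 3.51, 3.12 and 3.57 TPM (3.20 ± 0.452; adjusted p = 1.96e-07). F7, the partner of tissue factor, stood at 1.14, 0.688, 2.11 and 1.08 TPM, on both sides of 1 TPM (adjusted p = 0.350). F10 had 2 counts in library 1 and none elsewhere, and F9 had none in any.

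The cofactor and contact factors were all below 1 TPM. F5, the cofactor of factor Xa, stood at 0.755, 0.490, 0.870 and 0.374 TPM (adjusted p = 0.0323), and its call was lost without library 2 or library 4 (adjusted p = 0.0767 and 0.120). F12, which starts contact activation, had 4, 2, 0 and 0 counts, and F11, its substrate, 2, 2, 2 and 0.

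The 3 fibrinogen chains, which share a cluster on chromosome 3, were not equal in level. Fgb had 45, 237, 20 and 116 counts, or 1.14, 6.12, 0.666 and 2.92 TPM (2.71 ± 2.47; adjusted p = 0.00272), and libraries 2 and 4 were the high pair. Without library 2 the Fgb call was lost (adjusted p = 0.0638). Fga had 18, 52, 0 and 16 counts (0.578, 1.70, 0 and 0.510 TPM) and Fgg 18, 20, 8 and 3 (0.831, 0.940, 0.485 and 0.137 TPM), and neither differed from 1 TPM by the test (adjusted p = 0.422 and 0.154). Fgb exceeded Fga in all 4 libraries, by 1.98 ± 0.87 in log2 ratio of TPM + 0.1 (0.988 with TPM + 1). F13b, the carrier subunit of the fibrin-crosslinking factor, was not detected.

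Of the 6 anticoagulant proteins 4 were expressed, beside 63.3% of protein-coding genes. The summed level of the 6, 284 ± 95.5 TPM, was the highest of the 9 role groups of the 45 genes. Tfpi, which inhibits factor Xa and the tissue factor complex, stood at 84.1, 213, 113 and 137 TPM (137 ± 55.3; adjusted p = 2.02e-17), the highest mean of the 45 genes. Pros1, the cofactor of activated protein C, stood at 71.1, 110, 75.6 and 114 TPM (92.5 ± 22.3), with libraries 2 and 4 the higher pair. Procr, the receptor that presents protein C, stood at 23.1, 37.4, 26.4 and 32.3 TPM (29.8 ± 6.35). Thbd, thrombomodulin, which turns thrombin to the activation of protein C, stood at 9.76, 43.4, 13.9 and 27.3 TPM (23.6 ± 15.2), again with libraries 2 and 4 high.

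The protein C gene itself, Proc, had 12, 22, 6 and 6 counts (0.470 ± 0.286 TPM) and was below 1 TPM (adjusted p = 0.0407), a call that was lost without library 1, 3 or 4 (adjusted p = 0.0784 to 0.126). Tfpi2, a related inhibitor known from placenta, was at 0.111, 0.225, 0.363 and 0.439 TPM, below 1 TPM with 2 to 8 counts (adjusted p = 0.0256), a call that was lost when any 1 library was left out (0.0544 to 0.0702). Endothelial cells are a known source of Tfpi, Procr and Thbd. Of 12 endothelial markers 8 were expressed, beside 63.3% of protein-coding genes, and Emcn was not detected. The 12 summed to 110, 149, 120 and 146 TPM, led by Pecam1 (45.3 TPM) and Flt1 (27.1 TPM). The part of these markers in the levels of Tfpi, Procr and Thbd was not tested.

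In the plasminogen system both activators and the receptor were expressed, while their substrate was below 1 TPM. Plat, tissue plasminogen activator, stood at 62.8, 98.4, 71.9 and 116 TPM (87.2 ± 24.3; adjusted p = 1.10e-17). Plaur, the urokinase receptor, stood at 57.6, 79.1, 70.7 and 77.5 TPM (71.2 ± 9.77), and Plau, urokinase, at 11.97, 16.5, 13.4 and 15.9 TPM (14.4 ± 2.10). Library 1 was the lowest for all 3. Plg, plasminogen, had 0, 6, 2 and 2 counts and was below 1 TPM (adjusted p = 0.00668).

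Ratios within a library compare members that act together, with the spread over libraries as the error. Of 20 pairs, 8 had both members expressed, and in 6 of these the same member was higher in all 4 libraries. With 4 libraries the exact two-sided sign-flip permutation test cannot go below p = 0.125, so no pair could pass 0.05. F3 exceeded Thbd by 2.48 ± 0.13 in log2 ratio (5.60-fold), a narrow range of 2.33 to 2.64, although F3 alone ranged 4.81-fold and Thbd 4.44-fold between libraries. Plau was below Plaur by a ratio of similar steadiness, -2.30 ± 0.06, and below Plat by -2.56 ± 0.22. Narrow ranges were not limited to the chosen pairs. In mean log2 ratio Pros1 exceeded Plat by 0.09 ± 0.09 and Cd55 exceeded Plau by 0.15 ± 0.11. These are neighbours in the order of levels given below, where the other neighbours varied more. C1s1 exceeded C1ra by 1.26 ± 0.61.

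The remaining expressed pairs were less even. F3 and Tfpi, the initiator and its inhibitor, did not keep an order: Tfpi was higher in libraries 1 and 3 and F3 in libraries 2 and 4 (-0.20 ± 0.52; exact permutation p = 0.5). Thbd was below Procr in 3 libraries and above it in library 2 (-0.55 ± 0.65; exact permutation p = 0.25). C3 was below Cd55 in all 4 libraries (-0.75 ± 0.58), as was Cd59a (-1.05 ± 0.77). With the longest transcript as gene length these became -1.37 and -1.67, and Plau to Plat became -3.16. Pairs with 1 low member had wider ratios, which depend on the settings. F3 exceeded F7 89.0-fold as a geometric mean of TPM + 0.1, with a range of 51.7 to 121-fold over the alternatives. Pros1 exceeded Proc 173-fold (63.1 to 200-fold), and Masp1 exceeded Masp2 56.7-fold (31.3 to 94.3-fold).

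**Figure D2:**
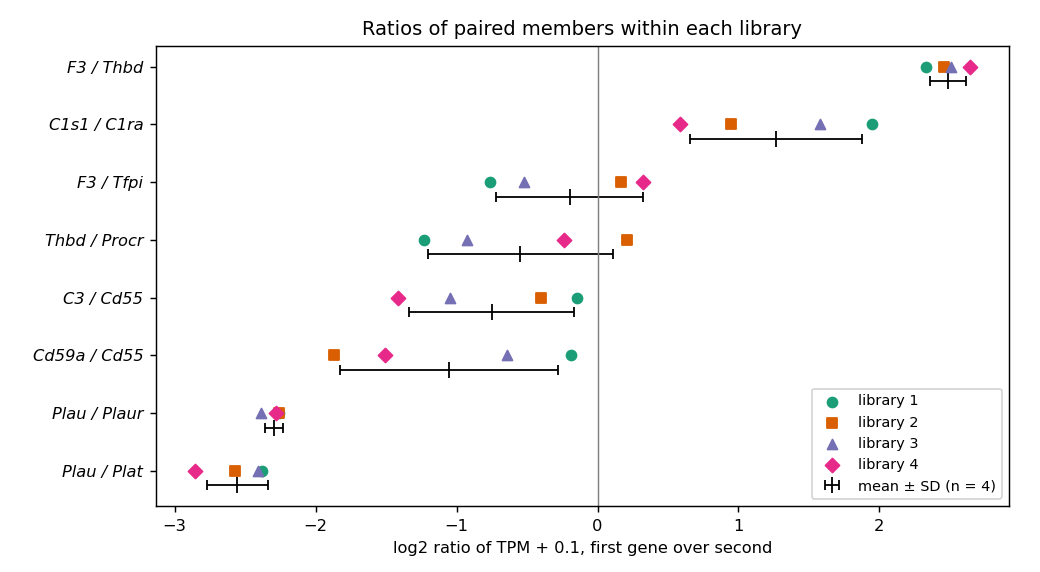
Log2 ratio of TPM + 0.1 for the 8 pairs with both members expressed, by library, with the mean and SD (n = 4) drawn under the points; values above 0 mean that the first gene is higher. F3 over Thbd and Plau over Plaur vary least (SD 0.13 and 0.06), and F3 over Tfpi and Thbd over Procr fall on both sides of 0.

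In order of mean level the 18 expressed genes ran Tfpi, F3, Pros1, Plat, Plaur, Masp1, Procr, Thbd, Cd55, Plau, C1s1, C3, Cd59a, C1qb, C1ra, F2, C1qa and C2. Of the 17 neighbouring pairs in this order, 6 kept their order in all 4 libraries: Plat above Plaur, Masp1 above Procr, Cd55 above Plau, C1s1 above C3, C1ra above F2 and F2 above C1qa. The order of the other neighbours changed with the library, and none of the neighbours among the 4 highest genes kept its order in all 4.

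The expressed members had a wider median spread between cultures than expressed protein-coding genes. The SD of log2 TPM over the 4 libraries had a median of 0.37 over the 18 (0.21 for F2 to 1.03 for F3) and of 0.17 over 12645 expressed protein-coding genes, of which the 95th percentile was 0.58. F3, Thbd, C1qb, C3 and C1ra lay above that percentile. The protein-coding genes were not matched to the members by level, and low counts add counting error. C1qb had 32 to 96 counts per library and C1ra 78 to 246. Libraries 2 and 4 were the 2 highest for 12 of the 18 members (66.7%), beside 33.0% of expressed protein-coding genes. The order 2, 4, 3, 1 from high to low was taken from the summed parietal endoderm markers given below. It held for 7 members (F3, Tfpi, Thbd, Procr, Cd55, Plau and Plaur), beside 15.1% of genes. Among the expressed complement genes, C1ra, Masp1 and Cd55 had libraries 2 and 4 as their 2 highest, and C3, C1s1, C2, Cd59a, C1qa and C1qb did not.

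Marker lists also differed between libraries. The summed parietal endoderm markers stood at 3640, 11140, 4410 and 8615 TPM in libraries 1 to 4, all 12 being expressed in each. The 7 members above were picked by this order of libraries, so their match with it was fixed in advance. The summed endothelial markers had the same order, at 110, 149, 120 and 146 TPM, but the list was not uniform. Flt1 followed this order, at 12.4, 45.3, 14.8 and 35.7 TPM. Pecam1, the highest of the list, was highest in library 3 and lowest in library 2, at 50.0, 33.5, 57.4 and 40.4 TPM. The macrophage markers summed highest in libraries 1 and 3, as did their 2 highest members, Cd68 and Laptm5. Of the other expressed macrophage markers, Csf1r, Lyz2 and Cd14 were highest in library 2 and Tyrobp in library 4. The trophoblast markers summed highest in libraries 4 and 2, but the expressed ones differed. Prl2c2 and Hand1 were highest in library 4, and Krt7 and Plac1 in library 2. Cdx2, Eomes and Tfap2c were highest in library 1, and Ascl2 in library 3. The fibroblast markers summed to 1732, 3765, 1511 and 2584 TPM, and the pluripotent cell markers to 8324, 4694, 7666 and 5665 TPM, so that libraries 1 and 3 were the highest for the latter. The hepatocyte markers summed to 22.002, 67.6, 21.4 and 41.6 TPM, with libraries 2 and 4 the highest, as for Fgb. The part of these cell types in the levels of the members was not tested.

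**Figure D3:**
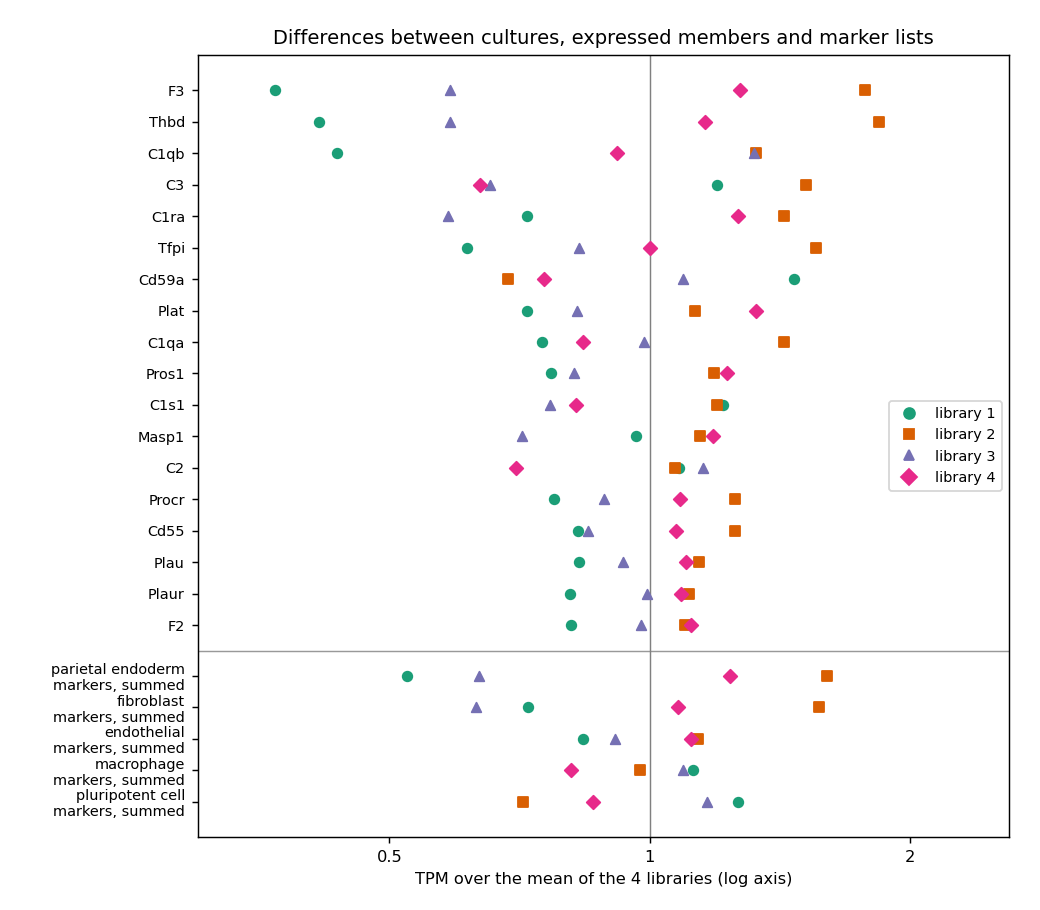
TPM of each library over the mean of the 4 libraries, on a log axis, for the 18 expressed members ordered by their spread and for 5 summed marker lists under the line. Libraries 2 and 4 lie right of the mean for F3 and Thbd and for the parietal endoderm markers, and left of it for Cd59a and the pluripotent cell markers.

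No member was called when each library was set against the other 3 with edgeR's quasi-likelihood test, a design that takes the single library to be as variable as the rest. Of 17398 rows tested, including 24 members, 0 were called for each library (0.0% for libraries 1, 2, 3 and 4 alike). Rows with an unadjusted p below 0.05 numbered 926, 1284, 274 and 269 for libraries 1 to 4. The members among them numbered 6 for library 1 (C1qb, C1qc, F3, Plaur, Tfpi and Thbd), 4 for library 2 (C1qc, Fgb, Tfpi and Thbd), 1 for library 3 (Masp1) and 0 for library 4. DESeq2 called 8, 69, 3 and 3 rows and no member. When rows with low counts were kept in, edgeR called 0.836% of 39251 rows for library 1, with 3 of 43 members (F3, Tfpi and Thbd), and 1.19% for library 2, with 5 of 43 (C1qc, F3, Fgb, Tfpi and Thbd). Leaving out 1 library set a single library against 2, with no spread of its own, and gave calls in 4 comparisons only. In those 4, library 1 or 3 was set against libraries 2 and 4, or library 2 or 4 against libraries 1 and 3. So the calls depended on which library was left out. With 1 library against the other 3, its partner is always among the 3. That design therefore does not test libraries 2 and 4 against 1 and 3. Without library 3, 12.4% of rows were called for library 1, with 7 of 25 members, and without library 4, 14.4% for library 2, with 11 of 26. Without library 1, 7.35% were called for library 3, with 8 of 24 members, and without library 2, 7.80% for library 4, with 7 of 24. These calls show that dependence and are not given as differences of a library.

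The other genes of both cascades, 68 in 7 lists, had 36 expressed, 37 above 1 TPM, 17 below, 9 not called and 5 without a count. Their median level was 2.05 TPM, beside 7.53 TPM over all protein-coding genes. Of protein-coding genes 63.3% were expressed, and of those tested 72.9% were above 1 TPM and 17.9% below. The counts of the 7 lists, here and in the next paragraph, are to be read beside these shares. All 8 genes that process coagulation factors in the secretory pathway were expressed and above 1 TPM, led by the cargo receptor partners Mcfd2 (120 ± 6.11 TPM) and Lman1 (113 ± 15.3 TPM). Of 10 thrombin receptors and plasminogen-binding proteins, 9 were above 1 TPM and none below, led by Eno1 (759 ± 47.2 TPM), also a glycolytic enzyme, and Anxa2 (490 ± 116 TPM), a binding site for plasminogen activation. Of 11 coagulation and fibrinolysis inhibitors, 4 were above and 5 below 1 TPM, led by Serpine2, an inhibitor of thrombin and urokinase (135 ± 38.8 TPM), and Serpinb6a, an intracellular serpin (120 ± 10.5 TPM).

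The further complement lists were mixed. Of 11 other regulators 6 were above 1 TPM and 4 below, led by Clu (179 ± 90.1 TPM), clusterin, which binds the forming pore, and Serping1 (42.2 ± 7.40 TPM), the C1 inhibitor. Of 12 other components 4 were above and 4 below, led by Colec12 (48.8 ± 10.4 TPM), a membrane collectin, and C8g (7.71 ± 1.36 TPM), the third chain of C8, although its partners C8a and C8b were below 1 TPM. Of 9 receptors 3 were above and 3 below, led by C1qbp (293 ± 10.8 TPM), a mostly mitochondrial protein that also binds C1q, and C3ar1 (4.59 ± 1.64 TPM), the C3a receptor. Of 7 other coagulation factors 3 were above and 1 below, led by Kng1, kininogen (2.02 ± 0.827 TPM), and Vwf, von Willebrand factor (2.00 ± 0.129 TPM).

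**Figure D4:**
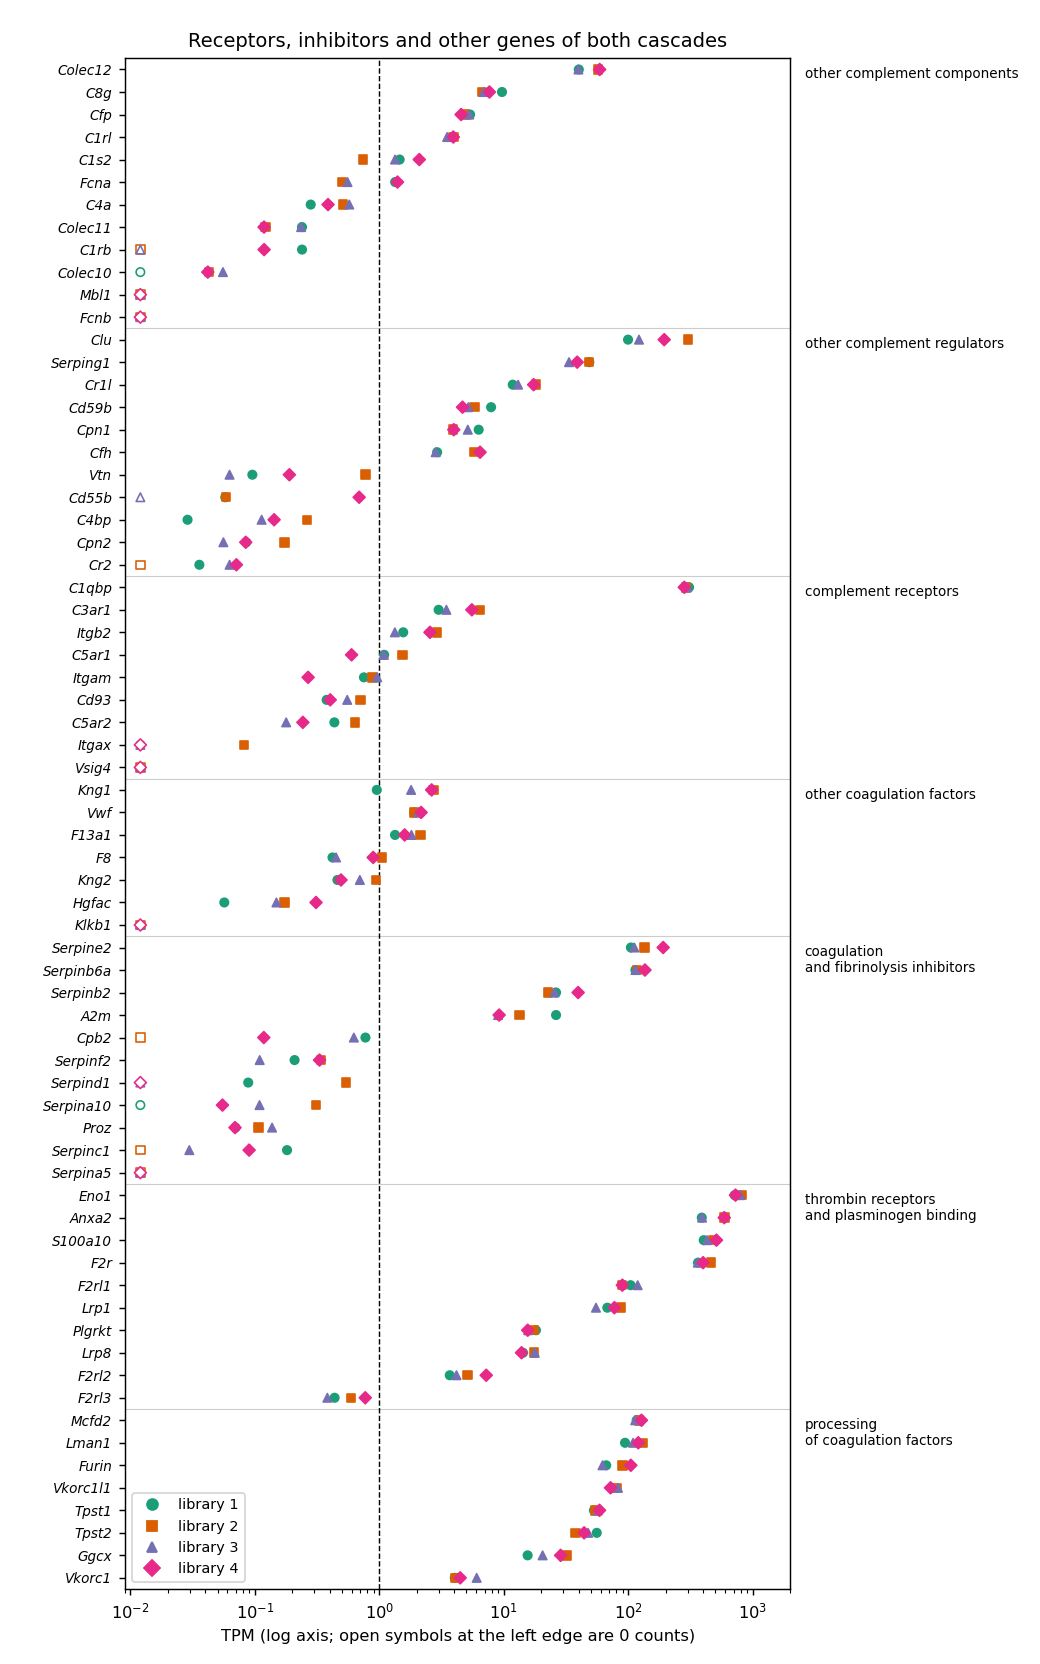
Level of the 68 other genes of both cascades in each A-HIC library, in TPM on a log axis, in 7 lists; open symbols at the left edge are 0 counts and the dashed line is 1 TPM. All 8 genes that process coagulation factors lie right of the line, and the inhibitors divide into 4 genes above 1 TPM and 7 that did not reach it in all libraries.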

How the data were processed

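Raw counts were deposited, 1 whole number per gene and library, without normalization. The submitters' processing notes name STAR, featureCounts and GRCm39 (mm39), with versions, annotation release and options not given in the sources used here. Per the labels' protocols, the libraries were polyadenylated, unstranded and read from both ends. Even numbers made up 60.0% to 62.6% of counts between 1 and 8, so both ends of a pair may have been counted. How reads from near-identical genes were assigned is not known.

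TPM was computed from the deposited counts with the union of exons in GENCODE M21 (GRCm38, not the submitters' build) as length. Of 78028 rows, 48846 had a length; these held 98.89% to 99.05% of the counts. Each level was tested against 1 TPM with edgeR (4.0.16): an intercept with offsets for length and library scale, two-sided, over rows with at least 1 count, adjusted p under 0.05. Its F statistic was written out because the packaged function needs a second coefficient, and it was tested on simulated data. Comparisons of 1 library with the other 3 used edgeR with TMM and filterByExpr. Pair ratios used a pseudocount of 0.1. Alternatives were limma (3.58.1), DESeq2 (1.42.0), other filters, lengths, thresholds and pseudocounts, and leaving out each library. R 4.3.3, Python 3.11.15, numpy 2.4.6, pandas 2.3.3 and matplotlib 3.10.9 were used.

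The members, lists and pairs were chosen with earlier results of these data known. Members are given library by library where expressed or among the 2 highest of their role, the others by range or counts. Of other pathway and marker lists, the 2 highest genes and markers not detected are named. Others were chosen after their values were seen. These were C1s2, C1rb, C4a, Cd55b, Cd59b, Csf1r, Ptprc, Lyz2, Cd14, Tyrobp, Hand1, Krt7, Plac1, Cdx2, Eomes and Ascl2. A further gene of these lists is not reported here. The replicates are separate cultures of 1 line, per the labels.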

Additional observations from a re-analysis of the deposited data

Results flagged for a closer look

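Of 38 members examined, 2 had a library far from the other 3 relative to the range, by Dixon's criterion for groups of 4; chance flags about 1 in 20 groups. Masp2 stood at 1.22 TPM in library 4 and at 0.882 to 0.922 TPM in the others, with a gap of 0.881 of the range. C8a stood at 0.108 TPM in library 2, which is 4 counts, and at 0.264 to 0.292 TPM in the others, with a gap of 0.844 of the range.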

How the results depend on the processing

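Of the 43 members tested against 1 TPM, 21 had a value and the same call under all 12 alternatives; another 5 (Cfi, F10, F11, F12 and F13b) kept theirs in those that could be run, since filters or left-out libraries removed them from the rest. Genes above 1 TPM numbered 14931 in the reported test and 13383 to 16491 elsewhere. Genes below 1 TPM numbered 7365, but 2920 with 10 counts or more required, 3793 against 0.5 TPM, 4579 to 5208 with 1 library left out, 9595 and 9887 with limma, 8434 with the longest transcript and 10864 against 2 TPM. Members below numbered 18, but 11 and 10 under the first 2 of these, 13 to 15 with 1 library left out and 22 against 2 TPM. Against 2 TPM the log2 level of C1qa turned to -0.012 and that of C2 to -0.33, and against 0.5 TPM that of Masp2 turned to 0.98 and that of F5 to 0.31, as moving the threshold implies. Under limma, C1qc and Fgb lost their call (adjusted p = 0.124 and 0.126 with a pseudocount of 0.1). Members above 1 TPM ranged from 16 to 22, and from 17 to 20 with 1 library left out.

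Rows called for libraries 1 to 4 against the rest, 0 in each reported test, numbered 8, 69, 3 and 3 with DESeq2 and 328, 469, 1 and 6 with no filter on low counts. With 1 library left out they ranged from 0 to 2206, 0 to 2552, 0 to 1303 and 0 to 1386; the cause was not tested. Of the pair ratios recomputed, 104 moved by less than 1 SD and 16 by more, most of them with a pseudocount of 1. No paired analysis was possible because there is only 1 group. Depth limits members with few counts, and the calls of Mbl2, Cfd, Proc and Tfpi2 changed between alternatives.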
